A study of Mus musculus with 30 samples.

Results

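Cells of the mouse insulinoma line βTC3 that carried a pair of hairpins against ALK7 (sh1/2) were compared with control cells of the same line after doxycycline (DOX) alone, across all genes. The comparison used the 6 libraries that the labels place in these groups, 3 of sh1/2 and 3 of the control, out of 30 libraries in 10 groups. βTC3 cells are insulin-making cells from a mouse pancreatic islet tumour. The sh1/2 cells held the hairpins on the plasmid PB-31, under DOX control, and the control cells held the plasmid PB-33 with no insert named in the labels. Every culture received 1 µg/ml DOX for 24 hours, the control cells too, and no activin B. All 6 libraries were in batch 1. No line with an empty PB-31 plasmid was among the samples, so the hairpins, the plasmid and any other difference between the lines cannot be told apart. The labels do not say whether a line was a clone or a pool. The replicates of a line were wells plated in triplicate. The p-values rested on the spread between replicate wells, estimated per gene over all 10 groups and not from these 6 libraries alone. That spread may be technical.

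ALK7, encoded by Acvr1c, is a type I receptor of the TGF-β family and a serine/threonine kinase. With a type II receptor it binds ligands such as activin B, and it then phosphorylates SMAD2 and SMAD3, which enter the nucleus with SMAD4 and change transcription. In the endocrine pancreas the receptor is found on islet cells, where activin B signalling is known to restrain insulin secretion.

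Library totals were 27480814, 31130651 and 18904884 counts in sh1/2 replicates 1, 2 and 3, against 21065952, 28723549 and 24073394 counts in the control replicates. Genes rich in G and C bases were low in sh1/2 replicates 1 and 3. Spearman's correlation between GC content and a library's log2 level relative to the mean of its group was -0.48, 0.70 and -0.58 in the sh1/2 replicates, and 0.40, -0.36 and -0.04 in the control replicates, each over the genes with a known GC content. Levels relative to a group mean balance out within the group. Relative to the mean of all 30 libraries the correlation was -0.49, 0.19 and -0.53 in the sh1/2 replicates. In the control replicates it was 0.26, -0.18 and 0.04. The contrast between the lines followed the same order: the median log2 fold change was 0.17 in the fifth of genes with the lowest GC content and -0.24 in the fifth with the highest. With a GC-corrected fit these medians were 0.02 and 0.03, and with sh1/2 replicate 2 as the lone sh1/2 library they were -0.07 and 0.05. For a part of the results, the GC-corrected value, the value from replicate 2 alone or the value from the libraries with activin B is given as well. Known defining genes of the beta cell summed to 12296 to 18384 CPM in sh1/2 libraries and 21213 to 22072 CPM in control libraries. The highest of these sh1/2 sums was that of replicate 2, and the 2 lower ones were those of replicates 1 and 3. CPM are counts scaled to library size and, except in such sums, normalized between libraries. Of these 9 genes 6 were lower and 1 higher, where 18.6% of all genes were lower and 19.4% higher. Acinar, stromal, endothelial and blood cell genes summed to at most 3.57 CPM in sh1/2 libraries and 2.41 CPM in control libraries, and Cpa1, Prss2, Lum and Cd3e had 0 counts in all 6 libraries. Duct genes summed to 26.4 to 26.6 CPM in sh1/2 libraries and 11.8 to 14.3 CPM in control libraries, with Krt19 at no more than 2 counts in a library.

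**Figure D1:**
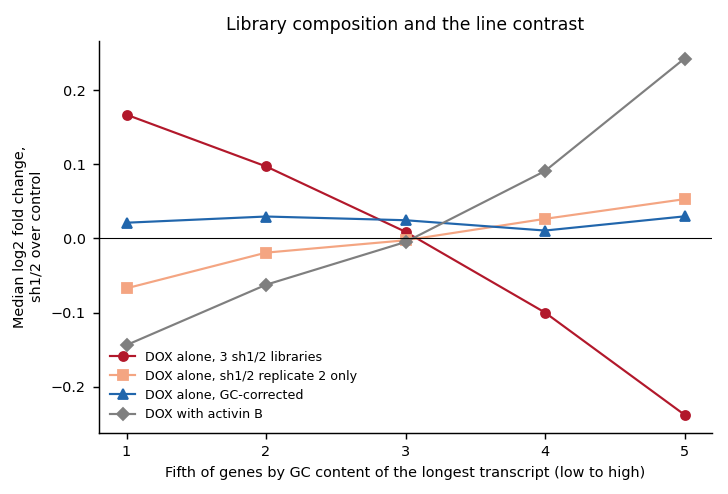
Median log2 fold change of sh1/2 over control (y axis) in 5 equal groups of genes ordered by the GC content of their longest transcript (x axis, low to high), for 3 fits of the DOX libraries and for the libraries with activin B. The line for all 3 sh1/2 libraries runs from 0.17 down to -0.24, the line for DOX with activin B runs from -0.14 up to 0.24, and the GC-corrected line stays between 0.01 and 0.03.

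Of 15627 genes tested, 5934 (38.0%) differed between sh1/2 and control cells under DOX alone at an adjusted p under 0.05 (edgeR's quasi-likelihood test). Of these, 3033 (19.4%) were higher in sh1/2 cells and 2901 (18.6%) were lower. At least 2-fold differences were fewer: 364 genes (2.33%) rose and 309 (1.98%) fell by that much. In both this fit and the GC-corrected fit, 334 (2.14%) were called and rose at least 2-fold, and 245 (1.57%) were called and fell at least 2-fold. At an unadjusted p under 0.05 there were 7319 genes (46.8%). The GC-corrected fit called 6571 genes (42.0%), with 3636 (23.3%) higher and 2935 (18.8%) lower, and 5041 genes (32.3%) were called in the same direction in both fits, 2664 (17.0%) higher and 2377 (15.2%) lower. Without the shared spread of the other 24 libraries the same 6 libraries gave 2430 calls, and replicate 2 of sh1/2 alone against the 3 control libraries gave 2882 calls among 16205 genes (17.8%), with 1182 (7.29%) higher and 1700 (10.5%) lower. In 3042 genes (19.5%) all 3 sh1/2 libraries lay above the 3 control libraries, and in 2854 (18.3%) all 3 lay below. For genes named below because of a large fold change, a lack of overlap was a condition of the choice.

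The targeted gene was low in every sh1/2 library. Acvr1c (mm10 chromosome 2, 58267453 to 58357895, minus strand) had 60.0, 46.1 and 59.9 CPM in sh1/2 libraries, against 166.7, 158 and 170.3 CPM in control libraries. No sh1/2 library came near the control range. The mean was 55.3 ± 8.0 CPM in sh1/2 cells and 165 ± 6.34 CPM in control cells (SD, n = 3 each), a log2 fold change of -1.58 ± 0.11 (SE, adjusted p = 4.16e-11). It was -1.74 in the GC-corrected fit, -1.85 with replicate 2 alone and -1.91 in the libraries with activin B. The single-hairpin line sh2, whose libraries under DOX alone were in batch 2, had a mean of 68.5 CPM.

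Among the other type I receptors, Acvr1b, which encodes the activin receptor ALK4, rose. It had 34.6, 37.5 and 30.1 CPM in sh1/2 libraries, against 29.8, 25.9 and 26.4 CPM in control libraries. The groups did not overlap, but their nearest values were close, and the log2 fold change was 0.32 ± 0.08 (adjusted p = 0.00426; GC-corrected 0.44). Acvr1, which encodes the receptor ALK2 and was chosen after its value was seen, also rose, by 0.40 on the log2 scale. Tgfbr1, the TGF-β type I receptor, had 178.8, 135.5 and 186.9 CPM in sh1/2 libraries and 141.5 to 148.4 CPM in control libraries, which overlapped (0.20 ± 0.09, adjusted p = 0.0911). Per kilobase of the longest transcript, Acvr1c stood at 6.04 CPM in sh1/2 cells and 18.0 CPM in control cells, Acvr1b at 7.72 and 6.19 CPM, and Tgfbr1 at 29.0 and 25.3 CPM, in the same order of cells. Acvr1c was thus below Acvr1b per length in sh1/2 cells and above it in control cells, and Tgfbr1 was the highest of these receptors in both. The type II receptors Acvr2a (0.11 ± 0.09) and Acvr2b (-0.18 ± 0.25) did not pass the test, and their direction changed with the GC correction or the choice of libraries.

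Smad2, a direct substrate of ALK7, fell. Its level was 79.8, 73.9 and 80.6 CPM in sh1/2 libraries, against 105.4, 105.9 and 109.3 CPM in control libraries. The groups did not overlap, with a log2 fold change of -0.45 ± 0.05 (adjusted p = 4.01e-08), -0.54 with the GC correction and -0.57 with activin B. The sh2 line had 88.4 CPM. Smad3 (-0.03 ± 0.09) and the common partner Smad4 (0.06 ± 0.04) did not pass the test, and the sign of Smad3 turned with the GC correction and with upper-quartile scaling. Tgfbr3, a co-receptor that presents ligands, fell by 0.69 on the log2 scale and remained lower under activin B, where its log2 fold change was -0.73. Inhbb, the gene of the activin B subunit, did not pass the low-count filter. Of the 30 tested members of the activin and TGF-β pathway list, 6 rose and 4 fell, near or below the 19.4% and 18.6% of all genes. The median log2 fold change was 0.13, beside -0.00 over all genes tested.

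Of 21 genes that SMAD2/3 signalling is known to control, 8 rose and 3 fell, where 19.4% of all genes rose and 18.6% fell. With the GC correction 10 rose and 1 fell, where 23.3% of all genes rose and 18.8% fell. With activin B 6 rose and 6 fell, where 16.9% of all genes rose and 18.3% fell. Smad7, the inhibitory SMAD that switches the receptors off, had 4.66, 3.49 and 4.49 CPM in sh1/2 libraries, against 3.17, 2.30 and 2.96 CPM in control libraries. These low values did not overlap (0.59 ± 0.13, adjusted p = 0.000783; GC-corrected 0.85), although with replicate 2 alone the difference of 0.31 was not called. Bambi, a pseudoreceptor that dampens TGF-β signals, rose by 0.74 ± 0.06. Bcl2l11, which encodes the proapoptotic protein BIM, stood at 71.9, 66.6 and 74.8 CPM in sh1/2 libraries, against 44.9, 44.2 and 44.2 CPM in control libraries. All sh1/2 values were above the narrow control range (0.68 ± 0.06, adjusted p = 4.36e-09). Bmf, another proapoptotic BH3 gene, averaged 1.58 CPM in sh1/2 cells and 1.17 CPM in control cells and was not called without the GC correction (adjusted p = 0.0839; 0.0261 with it).

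Cdkn1a, the gene of the cell-cycle inhibitor p21, rose in all sh1/2 libraries. It had 198.8, 226.6 and 200.7 CPM in sh1/2 libraries, against 90.4, 88.4 and 92.0 CPM in control libraries. Every sh1/2 library was far above the control range, with a log2 fold change of 1.21 ± 0.06 (adjusted p = 3.28e-13) and 0.87 under activin B. The sh2 line had 114.8 CPM. Targets of BMP signalling included Id1, an inhibitor of basic helix-loop-helix factors, at 11.5, 17.3 and 10.3 CPM in sh1/2 libraries against 3.56, 4.43 and 3.34 CPM in control libraries. It rose by 1.79 ± 0.22 on the log2 scale (adjusted p = 7.96e-07). Its relative Id2 rose by 0.48, while Chrd, a secreted BMP antagonist, fell by 1.36 on the log2 scale. Of the 11 tested members of the BMP list 3 rose and 3 fell, where 19.4% of all genes rose and 18.6% fell.

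**Figure D2:**
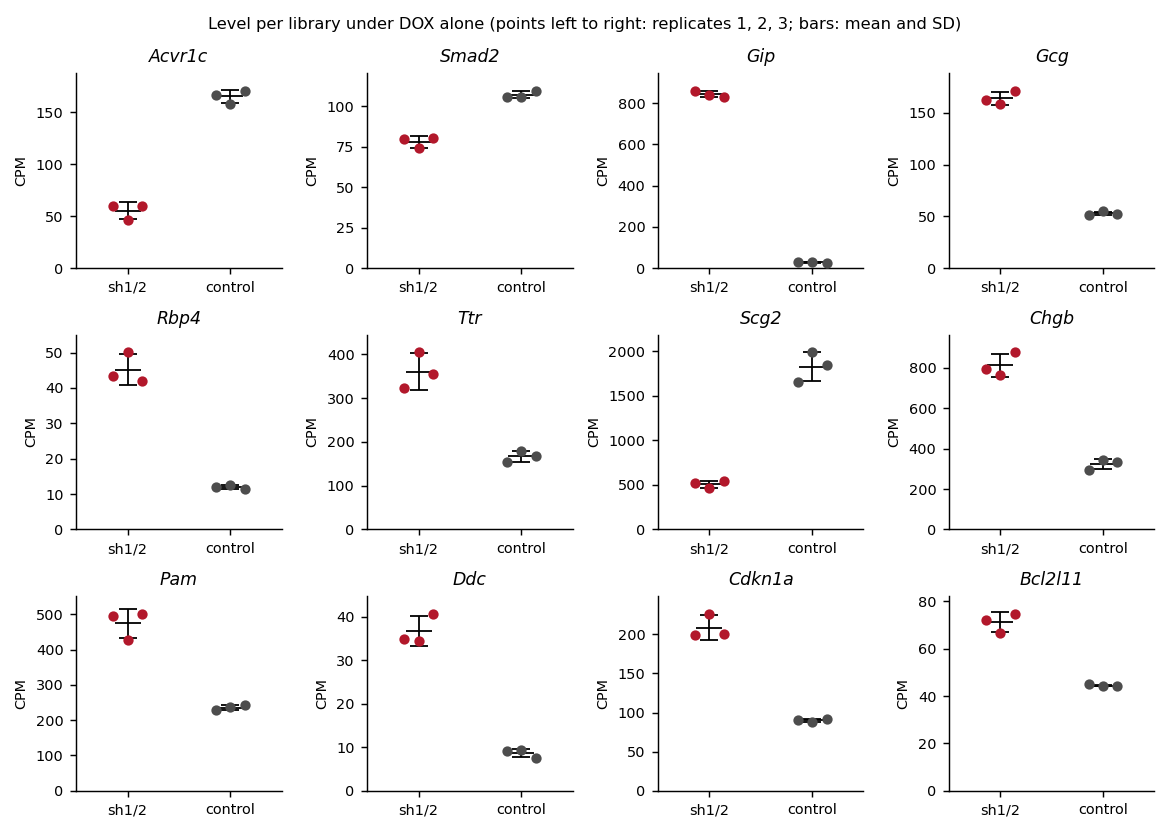
Normalized CPM (y axes, from 0) of 12 genes in each of the 3 sh1/2 and 3 control libraries under DOX alone, with the mean and SD of each group as bars. In all 12 panels the groups do not overlap: Acvr1c, Smad2 and Scg2 are lower in sh1/2 libraries, and the other 9 genes, led by Gip at 830.4 to 859.1 CPM against 26.9 to 30.8 CPM, are higher. Some of these genes, Gip and Ddc among them, were named by a rule that required a lack of overlap.

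Of 16 tested hormone genes of other islet and gut cells, 8 rose, 2 fell and 6 were not called, where 19.4% of all genes rose. The median log2 fold change was 0.97 (GC-corrected 1.05). Gip, the gene of the gut incretin GIP, had 859.1, 840.5 and 830.4 CPM in sh1/2 libraries, against 30.3, 30.8 and 26.9 CPM in control libraries. The 3 sh1/2 values were close to each other and far above the control values, with a log2 fold change of 4.84 ± 0.10 (adjusted p = 1.51e-20). Gip was 5.16 higher on the log2 scale in the libraries with activin B, and its mean was 107.0 CPM in the sh2 line and 25.1 CPM in the line with ALK7. Gcg, which encodes glucagon and GLP-1, had 162.6, 158.2 and 171.2 CPM in sh1/2 libraries, against 51.6, 54.9 and 52.0 CPM in control libraries. The groups were clearly apart (1.63 ± 0.07, adjusted p = 4.45e-14), while sh2 cells had 52.7 CPM, close to the control mean of 52.8 CPM.

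The promoters of Gip and Gcg are shown because they belong to the incretin and the glucagon gene just described. Each sequence below is the stretch of 250 bases before the gene's start in RefSeq on GRCm38.p6, read on the gene's strand, and the capitals mark TATAA, the core of a TATA box, on either strand. Gip lies on the plus strand at chr11:96024295-96024544 and Gcg on the minus strand at chr2:62483654-62483903.
Gip: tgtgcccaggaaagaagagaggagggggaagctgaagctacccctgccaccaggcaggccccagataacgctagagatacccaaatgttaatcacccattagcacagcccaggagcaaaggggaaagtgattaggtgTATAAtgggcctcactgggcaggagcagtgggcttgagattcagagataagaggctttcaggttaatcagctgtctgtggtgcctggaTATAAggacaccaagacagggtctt
Gcg: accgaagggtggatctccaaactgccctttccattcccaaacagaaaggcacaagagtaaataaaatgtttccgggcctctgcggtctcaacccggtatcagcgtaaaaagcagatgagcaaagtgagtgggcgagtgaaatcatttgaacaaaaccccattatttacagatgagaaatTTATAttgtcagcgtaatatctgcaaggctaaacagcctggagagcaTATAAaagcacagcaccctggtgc
Both windows held 2 matches, and the one nearest to the gene began 25 bases before the start of Gip and 24 bases before that of Gcg. TATAA occurred in 22.8% of all 32851 windows of this length, so its presence here is a description.

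Other members of the list were lower in abundance. Rbp4, a retinol carrier made by alpha cells, had 43.4, 50.1 and 42.0 CPM in sh1/2 libraries, against 11.9, 12.4 and 11.3 CPM in control libraries. It rose by 1.92 ± 0.09 on the log2 scale (adjusted p = 2.39e-14) and did not overlap between groups. Ttr, the thyroid hormone carrier transthyretin, rose by 1.11, Sct, the gene of secretin, by 1.42, and Sst, the gene of somatostatin, by 1.77, all on the log2 scale. Ttr, Sct, Sst and Npy were chosen after their values were seen. Npy, the gene of neuropeptide Y, went the other way: it had 854.1, 1484 and 962 CPM in sh1/2 libraries, against 2005, 1771 and 2085 CPM in control libraries (-0.83 ± 0.14, adjusted p = 7.38e-05), but with the lone replicate 2 its difference of -0.41 was not called, and with activin B it was 0.24 and not called. Known alpha cell genes summed to 496 to 587 CPM in sh1/2 libraries and 208 to 238 CPM in control libraries. Of 4 tested 3 were higher, where 19.4% of all genes were. The alpha cell factor Irx1 had at most 3 counts in any of these libraries. In bulk RNA, more cells of a type and more RNA per cell cannot be told apart.

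Secretory granule genes included changes in opposite directions. Of 32 tested, 10 rose and 8 fell, where 19.4% of all genes rose and 18.6% fell. Scg2, which encodes the granin secretogranin II, had 516.9, 467.4 and 544.2 CPM in sh1/2 libraries, against 1655, 1987 and 1840 CPM in control libraries. It was lower in each sh1/2 library by a wide margin (-1.84 ± 0.08, adjusted p = 1.96e-14; -1.85 under activin B), with 820.3 CPM in sh2 cells. Chgb, which encodes the granin chromogranin B, had 792.4, 766.4 and 876.5 CPM in sh1/2 libraries, against 294.5, 341.3 and 334.5 CPM in control libraries. All sh1/2 values were above the control values (1.33 ± 0.08, adjusted p = 1.87e-12; 1.49 under activin B). Per kilobase, Scg2 stood at 202.6 CPM in sh1/2 cells and 726.6 CPM in control cells, and Chgb at 296.3 and 118 CPM in the same order, so that the higher of these granins was Chgb in sh1/2 cells and Scg2 in control cells.

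Scg2 and Chgb both have the palindrome TGACGTCA, the cAMP response element, before their RefSeq start, and the element is shown because the levels of these granins went in opposite directions. The sequences are 30 bases on the gene's strand, from the minus strand of chr1:79440076-79440105 for Scg2 and the plus strand of chr2:132781559-132781588 for Chgb (GRCm38.p6), with the element in capitals.
Scg2: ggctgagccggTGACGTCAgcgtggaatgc
Chgb: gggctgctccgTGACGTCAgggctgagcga
The element began 68 bases before the start of Scg2 and 72 bases before that of Chgb, and 1.55% of all windows of 250 bases held it. A match in letters is a description and not a measured binding site.

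Of the enzymes on this list, Pam and Ddc rose. Pam, which amidates the ends of peptide hormones, had 494.4, 426.2 and 502.3 CPM in sh1/2 libraries, against 227.8, 237.2 and 241.8 CPM in control libraries (1.01 ± 0.06, adjusted p = 1.85e-12). Ddc, the decarboxylase that makes serotonin and dopamine, had 34.9, 34.6 and 40.8 CPM in sh1/2 libraries, against 9.19, 9.37 and 7.52 CPM in control libraries (2.08 ± 0.09, adjusted p = 8.64e-15). Neither gene overlapped between groups, which for Ddc, as a gene with a large fold change, was a condition of the choice. Sytl4, which encodes the granule protein granuphilin and was chosen after its value was seen, fell by 0.85 on the log2 scale.

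Beta cell identity genes were divided. Of 36 tested, 10 rose and 16 fell, where 19.4% of all genes rose and 18.6% fell. With the GC correction 12 rose and 12 fell, where 23.3% of all genes rose and 18.8% fell. Iapp, which encodes amylin, the peptide released with insulin, had 2342, 2701 and 2448 CPM in sh1/2 libraries, against 3811, 4300 and 4023 CPM in control libraries. It was lower in all sh1/2 libraries (-0.70 ± 0.07, adjusted p = 4.33e-08) and under activin B (-0.88). Trpm5, a calcium-activated cation channel of beta cells, fell by 0.81 ± 0.06 on the log2 scale. Insm1, a zinc finger factor of endocrine cells, rose by 0.56 ± 0.06, with 231.7, 202.1 and 222 CPM in sh1/2 libraries against 148.6, 148.3 and 149.2 CPM in control libraries.

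The insulin genes, given after their values were seen, depended on the libraries. Ins2 had 5186, 8406 and 4513 CPM in sh1/2 libraries, against 10709, 9905 and 10312 CPM in control libraries, with sh1/2 replicate 2 much nearer to the control range than replicates 1 and 3. Its log2 fold change was -0.77 ± 0.17 (adjusted p = 0.000732), but -0.31 and not called with replicate 2 alone, and 0.03 and not called under activin B. Ins1 had a log2 fold change of -0.42, -0.22 with replicate 2 alone. Reads of these near-identical genes may be split between them in the authors' counting, so each is uncertain. Of 13 progenitor factors tested, 7 rose and 1 fell, where 19.4% of all genes rose and 18.6% fell. Sox4, a factor of the developing endocrine pancreas, rose by 0.79 ± 0.07, Gata6 by 0.67 ± 0.06 and Pax4 by 0.76 ± 0.08, each with no overlap between groups.

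Ryr1, Otc, Spink4 and Rgs13 had, with Gip, the highest log2 fold changes of the protein-coding genes that averaged 5 CPM or more in sh1/2 or control cells. Ryr1, the calcium release channel of skeletal muscle, had 5.35, 5.76 and 4.12 CPM in sh1/2 libraries, against 0.289, 0.0697 and 0.0423 CPM in control libraries, where it was close to absent (5.31 ± 0.39, adjusted p = 1.53e-10). Otc, an enzyme of the urea cycle, had 6.54, 5.54 and 7.96 CPM in sh1/2 libraries, against 0.240, 0.488 and 0.169 CPM in control libraries (4.41 ± 0.37, adjusted p = 1.41e-09). Neither was high in sh2 cells, at 0.12 CPM for Ryr1 and 0.331 CPM for Otc. Spink4, a secreted peptide of the trypsin inhibitor family, had 26.6, 38.8 and 35.3 CPM in sh1/2 libraries, against 2.74, 3.21 and 2.75 CPM in control libraries (3.53 ± 0.14, adjusted p = 7.95e-15), and 10.4 CPM in sh2 cells. Rgs13, a regulator of G-protein signalling, rose by 3.35 and the imprinted gene Peg10 by 2.84, both on the log2 scale. The line with ALK7 had 18.7 CPM of Peg10, between the sh1/2 mean of 28.8 CPM and the control mean of 4.03 CPM. Pkib (2.75), Abca4 (2.72), Slc16a6 (2.38), Cftr (2.25) and Plxdc2 (2.03) followed in log2 fold change.

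On the lower side, Slc1a2, a glutamate transporter, had 0.904, 0.84 and 0.428 CPM in sh1/2 libraries, against 5.87, 5.82 and 5.92 CPM in control libraries (-2.96 ± 0.15, adjusted p = 2.61e-13). Pappa2, a protease that cleaves insulin-like growth factor binding proteins, had 24.0, 18.0 and 24.3 CPM in sh1/2 libraries, against 147.1, 140.7 and 152.3 CPM in control libraries (-2.74 ± 0.10, adjusted p = 2.15e-15). For both genes the sh1/2 libraries lay far below the control libraries, and the sh2 line was also low, at 1.01 CPM of Slc1a2 and 15.7 CPM of Pappa2. The RNA-binding protein gene Celf2 fell by 2.11, Hhip, an inhibitor of hedgehog signalling, by 1.99, and Prmt8, an arginine methyltransferase, by 1.95, all on the log2 scale. Lrrn2, Unc93a, Sigirr, Slc2a6, Cacna1h and Aldh1l1 had log2 fold changes between -2.47 and -1.75. Cacna1h, a T-type calcium channel, stood at 18.9, 26.6 and 15.5 CPM in sh1/2 libraries, against 76.3, 59.8 and 70.8 CPM in control libraries, and its log2 fold change was -0.86 under activin B.

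Among abundant genes, Epha7, an ephrin receptor, rose to 230.6, 185.3 and 235.8 CPM in sh1/2 libraries, against 87.1, 89.9 and 93.8 CPM in control libraries (1.27 ± 0.08). Pak3, a kinase of the cytoskeleton, rose by 1.13 ± 0.12. Uap1l1, a relative of the enzyme that makes UDP-N-acetylglucosamine, fell by 1.53 ± 0.11. The metallothionein Mt1 had 47.9, 120.2 and 36.3 CPM in sh1/2 libraries, against 240.5, 183.1 and 197.9 CPM in control libraries (-1.59 ± 0.32, adjusted p = 0.000341). Replicate 2 was much higher than the other sh1/2 replicates, and with it alone the difference of -0.80 was not called. Close metallothionein copies also make the counting of Mt1 uncertain.

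Genes of cholesterol synthesis and uptake were lower as a group. SREBP-2, encoded by Srebf2, is the factor that switches on these genes when sterols are scarce. Of 23 tested, 22 fell and 0 rose, where 18.6% of all genes fell. The median log2 fold change was -0.69, beside -0.00 over all genes tested. The count was 22 with the GC correction, where 18.8% of all genes fell, and 20 under activin B, where 18.3% fell. Lss, which closes the sterol ring, had 144.1, 155.0 and 140.5 CPM in sh1/2 libraries, against 297.7, 291.3 and 292.7 CPM in control libraries. The groups were far apart and tight (-1.003 ± 0.05, adjusted p = 7.31e-13), and the log2 fold change was -0.996 under activin B. Dhcr7, which makes cholesterol from its last precursor, fell by 0.90 ± 0.06 and Tm7sf2, a sterol reductase, by 1.08 ± 0.09 on the log2 scale.

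Hmgcs1, Idi1 and Srebf2 were chosen after their values were seen. Hmgcs1, an enzyme of the early steps, had a log2 fold change of -0.69. Idi1 alone was not called (0.01 ± 0.41), with 104.7, 211.5 and 132 CPM in sh1/2 libraries and 106.9 to 211.0 CPM in control libraries, a wide overlap. Srebf2 itself had a log2 fold change of -0.67, but -0.33 and not called with replicate 2 alone, and -0.02 under activin B, where 20 of the 23 genes were still lower.

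The promoter of Hmgcs1 is shown because it was the cholesterol gene with a match to the sterol regulatory element searched, TCACNCCAC on either strand. The sequence is the 250 bases before the RefSeq start on the plus strand, chr13:119690101-119690350 (GRCm38.p6), with the match in capitals, 137 bases before the start.
Hmgcs1: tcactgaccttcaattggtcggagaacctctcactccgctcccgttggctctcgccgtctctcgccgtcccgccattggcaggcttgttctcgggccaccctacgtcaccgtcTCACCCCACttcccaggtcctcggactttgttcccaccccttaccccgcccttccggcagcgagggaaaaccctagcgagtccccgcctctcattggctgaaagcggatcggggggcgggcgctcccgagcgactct
Of the 16 cholesterol genes with such a window 1 held the motif (6.25%), and 1.22% of all 27025 genes did. The other windows lack these letters, which says nothing about binding of SREBP-2 there.

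Genes of fatty acid synthesis and desaturation were among those that fell. Of 24 fatty acid genes tested, 12 fell and 2 rose, where 18.6% of all genes fell and 19.4% rose. The median log2 fold change of the list was -0.35. Scd2, a desaturase that makes monounsaturated fatty acids, had 1632, 1510 and 1585 CPM in sh1/2 libraries, against 3628, 3409 and 3543 CPM in control libraries (-1.16 ± 0.05, adjusted p = 8.64e-15). Its relative Scd1 fell by 1.09 ± 0.07 and the elongase Elovl6 by 1.31 ± 0.08, both on the log2 scale, and all 3 genes fell about as much under activin B, with -1.15, -1.33 and -1.30. In contrast Cpt1a, which brings fatty acids into mitochondria and was chosen after its value was seen, rose by 0.63, with 86.5, 90.7 and 86.3 CPM in sh1/2 libraries against 56.2, 56.5 and 57.1 CPM in control libraries. Under activin B its log2 fold change was -0.14, and the difference between the treatments was called (adjusted p = 2.43e-07).

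**Figure D3:**
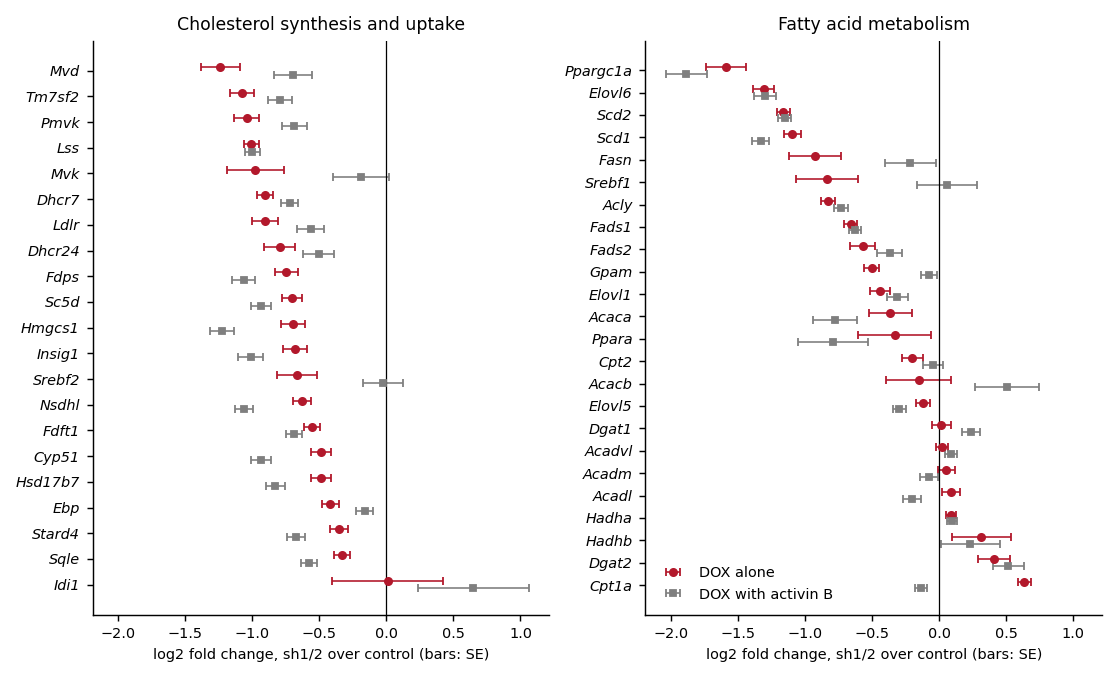
Log2 fold change of sh1/2 over control with its SE (x axis) for 21 of the tested genes of cholesterol synthesis and uptake (left) and the 24 of fatty acid metabolism (right), under DOX alone (circles) and DOX with activin B (squares). On the left 20 of the 21 genes drawn lie below 0 and were called lower, from -1.23 for Mvd to -0.33 for Sqle, and on the right 12 of 24 were called lower.

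Of 23 glycolysis genes tested, 11 fell and 2 rose, where 18.6% of all genes fell and 19.4% rose. Under activin B 7 fell and 4 rose, where 18.3% of all genes fell and 16.9% rose. Aldoc, an aldolase isoform, fell by 0.89 ± 0.09 on the log2 scale. Pfkfb3, whose product makes the activator of phosphofructokinase, rose by 0.84 ± 0.10. Aldoa, with its near-identical copies, is uncertain. Of 28 oxidative phosphorylation genes 11 fell and 0 rose, where 18.6% of all genes fell, with a median of -0.24. Of these genes 7 were lower both with and without the GC correction, where 15.2% of all genes were. Under activin B 7 were lower, where 18.3% of all genes were. Ppargc1a, the coactivator of mitochondrial biogenesis, had 5.82, 4.23 and 6.90 CPM in sh1/2 libraries, against 16.4, 15.4 and 18.7 CPM in control libraries (-1.59 ± 0.15, adjusted p = 1.17e-08). The succinate dehydrogenase subunits Sdhd and Sdhc fell by 0.50 and 0.44 on the log2 scale. Of 30 ribosomal protein genes, 1 rose and 1 fell, where 19.4% of all genes rose and 18.6% fell.

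Of 21 tested immediate early genes, which calcium and cAMP signals switch on within minutes, 12 rose, 0 fell and 9 were not called, where 19.4% of all genes rose. The list had a median log2 fold change of 0.63. Under activin B 14 rose and 1 fell, where 16.9% of all genes rose and 18.3% fell. Nr4a1, an orphan nuclear receptor, had 8.68, 11.4 and 7.32 CPM in sh1/2 libraries, against 3.17, 2.20 and 3.04 CPM in control libraries (1.71 ± 0.18, adjusted p = 8.6e-08). Egr1, a zinc finger factor, had 16.8, 15.8 and 13.1 CPM in sh1/2 libraries, against 5.44, 4.56 and 5.16 CPM in control libraries (1.60 ± 0.16, adjusted p = 3.55e-08). Neither gene overlapped between groups, and both were 1.74 higher on the log2 scale under activin B. Nr4a2 rose by 0.89 ± 0.08.

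Of 31 tested interferon and antigen presentation genes, 14 fell, 1 rose and 16 were not called, where 18.6% of all genes fell. Under activin B 17 fell and 0 rose, where 18.3% of all genes fell and 16.9% rose. Rsad2, which encodes the antiviral protein viperin, had 8.53, 6.88 and 9.41 CPM in sh1/2 libraries, against 13.9, 17.2 and 14.1 CPM in control libraries (-0.88 ± 0.10, adjusted p = 4.06e-07). Usp18, a brake on interferon signalling, fell by 0.50 ± 0.05. The class I gene H2-D1, which resembles other class I genes and is uncertain for that reason, fell by 0.73 ± 0.06. The cells expressed hairpins, and of 19 genes of the small RNA machinery 7 rose and 5 fell, where 19.4% of all genes rose and 18.6% fell. Drosha, the nuclease that cuts primary hairpins, rose by 0.36, while Ran, the GTPase that drives nuclear export, fell by 0.61 and Ago1 by 0.33, all on the log2 scale.

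**Figure D4:**
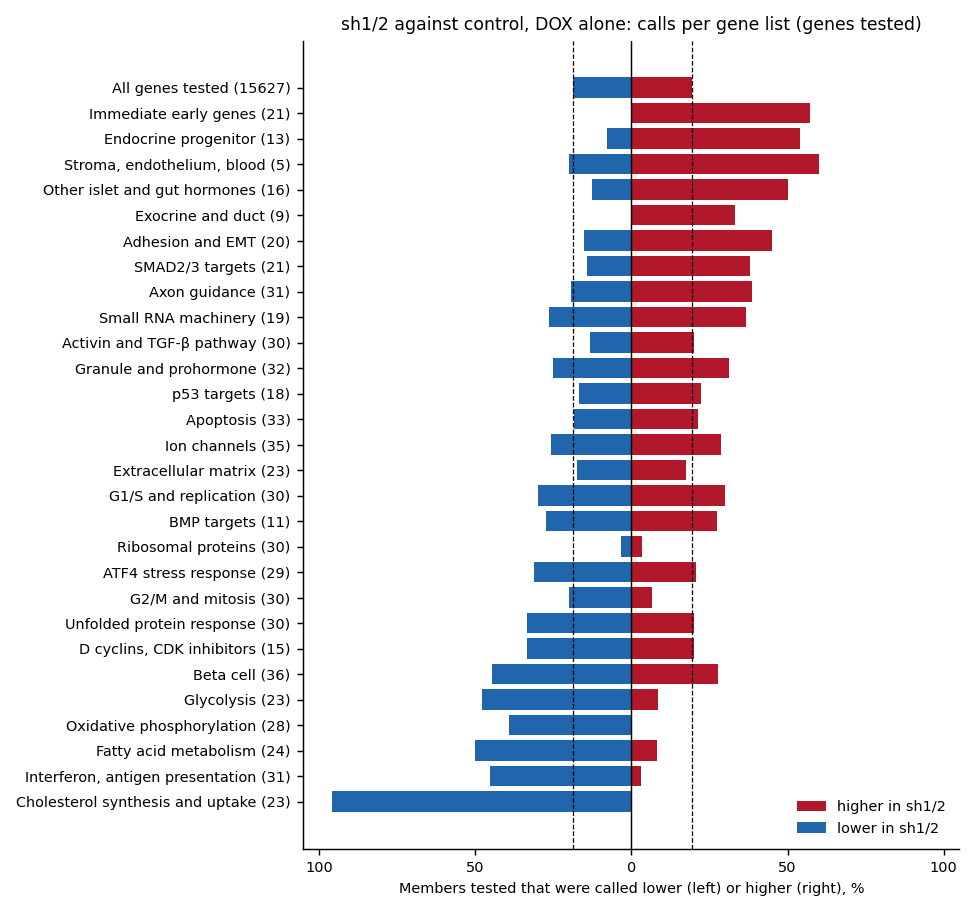
Share of the tested members of each gene list that were called higher (right, red) or lower (left, blue) in sh1/2 against control cells under DOX alone, in percent, with the number tested in brackets. The dashed lines and the top row give all genes tested, 19.4% higher and 18.6% lower, and the cholesterol list at the bottom has 22 of 23 members lower.

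The remaining lists are read against the 19.4% of all genes that rose and the 18.6% that fell, and several had shares near these. Their counts under activin B are read against the 16.9% of all genes that rose and the 18.3% that fell there. Of 31 axon guidance genes 12 rose and 6 fell, and the paired receptors of Slit proteins went apart: Robo1 rose by 0.96 ± 0.08, while Robo2 fell to 85.7, 82.0 and 95.7 CPM in sh1/2 libraries, against 185.4, 193.7 and 194.6 CPM in control libraries (-1.12 ± 0.07, adjusted p = 2.81e-11). Of 35 ion channel genes 10 rose and 9 fell, led by the R-type calcium channel Cacna1e with -1.84. Of 20 adhesion genes 9 rose and 3 fell, among them the laminin receptor subunit Itga6 with 0.71. Of 30 unfolded protein response genes 6 rose and 10 fell, with the stress sensor Ern1 at 0.49. Under activin B 12 of them rose and 5 fell. Of 29 ATF4 targets 6 rose and 9 fell. Of 33 apoptosis genes 7 rose and 6 fell, shares close to those of all genes. Of 30 G1/S genes 9 rose and 9 fell, and under activin B 4 rose and 4 fell. Of 30 mitosis genes 2 rose and 6 fell, and under activin B 1 rose and 12 fell. Aurkb, a mitotic kinase, fell by 0.66 on the log2 scale and Bora, an activator of mitotic entry, rose by 0.79. Of 15 genes of D-type cyclins and CDK inhibitors 3 rose and 5 fell. The cyclin genes Ccnd2 and Ccnd3 fell by 0.94 and 0.57, and the cell-cycle transcription factor gene E2f3 rose by 0.40, on the same scale. Among p53 targets 4 of 18 rose and 3 fell, with the junction protein gene Perp at -1.17 and Mdm2, the ligase that degrades p53, at 0.36.

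Of 23 extracellular matrix genes 4 rose and 4 fell, with the protease inhibitor Timp2 at -0.95, the laminin chain Lama1 at -0.999 and the basement membrane protein Nid1 at 0.38 in log2 fold change. Snai2, a repressor of epithelial genes, rose by 0.96 and the integrin chain Itgb1 by 0.44. Of 9 exocrine and duct genes tested 3 rose, among them the keratins Krt7 with 0.62 and Krt18 with 0.63, and Cftr. Of 5 tested stromal, endothelial and immune genes 3 rose and 1 fell. Vim, the intermediate filament vimentin, had a log2 fold change of 2.07, the complement gene C1qa -1.35 and the lysosomal protein gene Cd68 0.62.

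The libraries of the same lines with 50 ng/ml activin B for 24 hours gave a comparison of sh1/2 with control cells in other wells, with no library shared. There 5499 of 15627 genes (35.2%) were called, 2647 (16.9%) higher and 2852 (18.3%) lower in sh1/2 cells. The GC-corrected fit called 6365 (40.7%), with 3344 (21.4%) higher and 3021 (19.3%) lower. Of the 3033 genes that rose under DOX alone, 1210 also rose with activin B (39.9% of those and 45.7% of the list with activin B), and 46 fell. Of the 2901 that fell, 1453 fell again (50.1% and 50.9%) and 33 rose. Of the genes that differed by at least 2-fold, 264 of the 364 that rose (72.5%) and 196 of the 309 that fell (63.4%) were called in the same direction with activin B. The trend with GC content ran the other way there, with a Spearman correlation of 0.36 between GC content and log2 fold change over 15453 genes, against -0.36 under DOX alone. Both treatments share the lines and plasmids, so this comparison repeats the wells and not the lines.

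**Figure D5:**
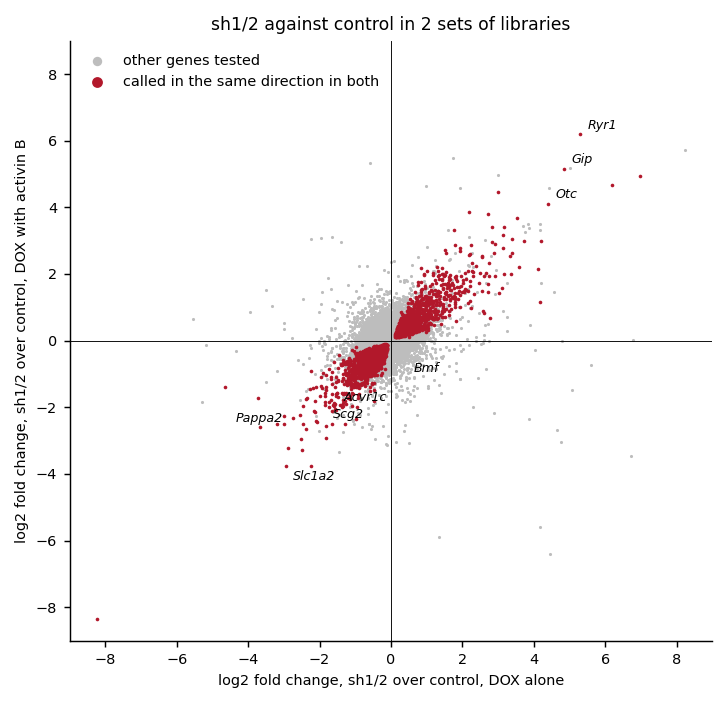
Log2 fold change of sh1/2 over control under DOX alone (x axis) and under DOX with activin B (y axis) for each of the 15627 genes tested, with those called in the same direction in both in red. The named genes Ryr1, Gip and Otc lie at the upper right, Slc1a2, Pappa2, Scg2 and Acvr1c at the lower left, and Bmf at 0.43 under DOX alone and -1.10 with activin B.

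The difference of the sh1/2 effect between the treatments was called for 2768 genes (17.7%), with 1327 (8.49%) higher and 1441 (9.22%) lower under activin B, but for 947 (6.06%; 2.68% higher and 3.38% lower) with the GC correction and for 45 when only the 12 libraries compared were fitted. It ranged from 289 without sh1/2 DOX replicate 1 to 6983 without sh1/2 DOX replicate 2. For Acvr1c the difference was -0.34 on the log2 scale and was not called (adjusted p = 0.100), and with the GC correction it was 0.01. It was not called for Gip (0.32, adjusted p = 0.0777) or Ryr1 (0.89, adjusted p = 0.385) either.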

How the data were processed

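RNA was measured by stranded poly(A) sequencing in 30 libraries of βTC3 cells, in 10 groups of 3. The authors deposited raw gene counts, made per the submitters' processing notes with bcl2fastq 2.17, cutadapt 1.4.2, HISAT2 and featureCounts 1.4.4 on mm10; the strand setting and the treatment of reads with several matches are not given in the sources used here. From the counts as deposited, edgeR 4.0.16 (R 4.3.3) fitted 1 mean per group to all 30 libraries, with TMM normalization, its default low-count filter (15627 of 39017 genes kept), the quasi-likelihood F test and Benjamini-Hochberg adjustment at 0.05. CPM are counts divided by the normalized library size, and each SE is the log2 fold change over the square root of F. The 6 libraries compared held 18904884 to 31130651 counts. GC content and length are those of a gene's longest transcript in GENCODE, and the GC-corrected fit took a smooth trend on GC content out of each library's offsets. With sh1/2 replicate 2 alone, the lone sample was assumed to vary like the other groups.

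The genes named are those of the receptor and SMAD set, up to 12 per direction with the largest fold change at 5 CPM or more and up to 6 at 100 CPM or more (called in both fits, groups not overlapping), and the 3 smallest p in each of 28 lists. The text says where others were chosen after their values were seen. The comparison and the lists were chosen with earlier results of these data known. Alternatives used other scalings, filters and library sets, DESeq2 1.42.0 and limma-voom (limma 3.58.1). In a test on simulated data of 15424 genes with this comparison's library sizes, 56.72% of 67 genes changed 1.5-fold and 77.27% of 66 genes changed 2-fold were called. Of the 15225 unchanged genes 0.03% were called. The simulated libraries had no GC trend and no outlying replicate, and few of their genes were changed. These rates therefore do not give the share of false calls in the real libraries. Replicates of a group differed by more than sampling noise, so none were merged. Some genes that the rule names are not reported here.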

Additional observations from a re-analysis of the deposited data

Results flagged for a closer look

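For 20 of the named genes the difference between sh1/2 and control cells under DOX with activin B was not the same as under DOX alone, by edgeR's test of the difference itself, both with and without the GC correction. Each value below is the log2 fold change with activin B minus that under DOX alone. The number of genes called for this difference depends strongly on the libraries fitted.

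In the activin pathway and its targets, the difference was -0.59 for Smad7, which was 0.59 higher under DOX alone and -0.01 with activin B. It was -1.53 for Bmf, at -1.10 with activin B and 0.43 under DOX alone, -0.34 for Cdkn1a and -0.92 for Id2, which was lower with activin B (-0.43) and higher under DOX alone (0.48). Among hormone and granule genes it was -0.56 for Gcg, 0.77 for Rbp4, -0.30 for Pam and -0.52 for Ddc, all 4 of them called higher under both treatments.

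Among endocrine factors the difference was -0.31 for Insm1, -0.63 for Sox4 and -0.81 for Pax4, and Sox4 and Pax4 were called higher under DOX alone and not called with activin B. Of the genes with the largest fold changes, it was -1.35 for Rgs13, -1.02 for Abca4, 0.42 for Pappa2 and 1.26 for Slc2a6. The difference was -0.31 for Krt7, -0.78 for Itga6, 0.29 for Pdia4, which encodes a protein disulfide isomerase, 0.64 for Ccnd3 and 0.77 for Rplp0, a ribosomal protein gene with near-identical copies whose value is uncertain.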

How the results depend on the processing

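Acvr1c was lower in sh1/2 cells under every alternative run, from -1.85 to -1.46 on the log2 scale, with -1.64 to -1.46 when 1 replicate was left out. The number of genes called under DOX alone (5934) was 2430 with only the 6 libraries compared, 2882 with sh1/2 replicate 2 alone, and 4338 to 7912 with 1 replicate left out. The replicate numbers did not pair sh1/2 with control samples: the correlations of same-numbered deviations were 0.02, -0.16 and 0.07 under DOX alone. Between the treatments of a line they were 0.32, 0.23 and 0.13 in sh1/2 cells and 0.31, 0.26 and 0.08 in control cells, and each sample correlated best with its own number, a hint from the data that the wells may be paired across treatments, which bears on the count for the difference. A replicate block, fitted to the 6 libraries compared alone, gave 1040 genes under DOX alone, beside 2430 for these libraries without it. Of the 23 cholesterol genes 14 were then lower, beside 22 without the block. With activin B the block gave 2725 genes, beside 3820 for the libraries compared there without it. Leaving out 1 replicate from the fit of all libraries gave 4171 to 5825 with activin B.

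The difference between the treatments was the least stable count (2768). It was 989 with no low-count filter, 45 with only the libraries compared, 5956 with the replicate block, 947 with the GC correction, 1361 with GC and length corrected, and 78 with sh1/2 DOX replicate 2 alone. Chosen after seeing the data, the GC correction gave 201 with only the libraries compared and 157 with replicate 2 alone. Leaving out 1 library gave 289 (sh1/2 DOX replicate 1) to 6983 (sh1/2 DOX replicate 2), with 303 without sh1/2 DOX replicate 3, 411 and 687 without control DOX replicates 1 and 3, 507 and 528 without sh1/2 activin B replicates 2 and 3, and 5111 and 324 without control activin B replicates 1 and 2. The cause was not tested.

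Of the named genes called besides Acvr1c, 0 changed sign under any alternative. Apart from the receptor and SMAD set, the named genes were chosen by their fold change or p in these data. Their stable sign was thus partly fixed by the choice and does not speak for all genes called. The number of named genes no longer called was 0 with DESeq2 and 2 with the GC correction. It was 6 with only the libraries compared and 24 with the replicate block added to that fit. Genes that did not pass the test changed sign. With replicate 2 alone Tgfbr1 was -0.116, Acvr2a -0.242, Acvr2b 0.282, Smad4 -0.0431 and Rplp0 0.0809, and with the GC correction as well Tgfbr1 was -0.0284, Acvr2a -0.153, Acvr2b 0.266, Smad4 -0.0186 and Rplp0 0.0707. With the GC correction Acvr2a was -0.0646 and Smad3 0.0787, and with length added -0.0721 and 0.0607. With the GC correction and only the libraries compared they were -0.0673 and 0.0667. With the block added to that fit they were -0.0688 and 0.0585. Smad3 was 0.0027 with upper-quartile scaling and -0.0848 to 0.0259 with 1 replicate left out, and Acvr2b -0.538 to 0.0268. The cause was not tested.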

Other observations

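Chromosome 4 had the highest share of genes lower in sh1/2 cells among the autosomes and X. Of its 906 genes with at least 1 CPM, 33.2% were called lower and 11.7% higher under DOX alone, with a median log2 fold change of -0.12. On the other chromosomes, with the same filter, 14.8% to 23.9% were lower and 16.2% to 31.0% higher. The median was -0.06 with the GC correction, -0.09 with sh1/2 replicate 2 alone and -0.08 with activin B. The pattern was noticed in these data and was not tested.

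Genes encoded in the mitochondrial genome had 0 counts in all libraries, although 37 of them are listed in the table.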
